A study of Arabidopsis thaliana with 8 samples.

Results

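Young embryos of Arabidopsis thaliana from a pair of crosses were compared 3 d after pollination, on 4 of the 8 arrays of the series, chosen by their stage label. Each array held RNA of isolated embryos from M0191 pollinated by bdl, called the bdl cross here, beside RNA of embryos from M0171 pollinated by Col-0, called the Col-0 cross. Both crosses carry the ecotype label Col-0, and plants grew under 16 h of light and 8 h of dark. The labels do not say what M0191 and M0171 are, and because mother and father both changed between the crosses, a difference cannot be ascribed to either of them. The labels count days from pollination where the design text counts them from fertilization, and how many embryos went into each sample is not given in the sources used here. The other 4 arrays of the series hold the same crosses at 6 d and share no sample with those at 3 d.

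BODENLOS (BDL, also IAA12) is an Aux/IAA repressor that holds the auxin response factor MONOPTEROS (MP) inactive until auxin triggers the breakdown of the repressor. In bdl the repressor is stabilised, and such embryos are known for failing to make a root and for misplaced or missing cotyledons. The genes that MP and BDL act on are largely regulators of pattern, so the comparison here was followed beyond auxin genes into storage, plastid, growth, wall, metal and defence genes.

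Differences are given as log2(bdl cross / Col-0 cross), so a positive value is higher in bdl, and the value after ± is the SD over the 4 arrays. A gene is said to have risen or fallen in the bdl cross where limma's p, adjusted by Benjamini-Hochberg over all genes tested, was under 0.05. Rises made up 7.02% and falls 6.13% of the 19229 genes tested, and calls 13.1% in all. Rises of at least 2-fold made up 2.06% and such falls 1.37%, together 3.43%. The median over all genes tested was −0.01. The smallest adjusted p was 0.0224, so every call lies between that value and the threshold. Most of the 2527 called genes were above blank spots in both crosses on all 4 arrays (2208 genes) and had the same sign on every array with a value (2503 genes).

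Calls depended on how bright a probe was. When tested genes were put in 5 equal bins by mean signal, 2.11% rose and 1.77% fell in the dimmest bin, where the median SD over arrays was 0.91. In the brightest bin 11.7% rose and 11.6% fell, with a median SD of 0.092. The arrays correlated across the genes of that bin at 0.92 to 0.95 for replicates 1 to 3, and at 0.78 to 0.81 for replicate 4 with each of the others. Across all genes tested the closest pairs were replicates 2 and 3 (0.50) and 1 and 4 (0.43), with 0.29 to 0.34 for the other pairs. Genes are not independent replicates, and these correlations are descriptions.

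Leaving out 1 array while keeping the dye term left 1 residual degree of freedom and 0 calls in limma each time, although 4610 to 5358 genes then had an unadjusted p under 0.05. Lists below are therefore also given, in brackets or in the next sentence, as their range of counts over the 4 fits that left out 1 array and the dye term. In those fits, which tested 17523 to 18067 genes, 8.00%, 6.28%, 6.44% and 11.7% of all genes rose without replicate 1, 2, 3 and 4. The falls were 7.21%, 4.98%, 5.03% and 11.0%. Upper ends came mostly from the fit without replicate 4. Because whole samples were measured, fewer cells of a type and less RNA per cell cannot be told apart.

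Marker genes of the labelled tissue and of its neighbours were read. Of 13 embryo markers tested, 12 were above blank spots on at least 3 arrays in the bdl cross and 13 in the Col-0 cross, and 6 rose and 2 fell. The counts of the next lists are again over genes tested, against 7.02% and 6.13% of all genes. Markers of neighbouring tissues were present too. All 19 seed coat markers were above blank spots on at least 3 arrays in both crosses, and 7 rose and 0 fell. Of 12 endosperm markers, 4 rose and 1 fell, and of 5 leaf and silique wall markers 0 rose and 0 fell. With 1 array left out, the counts were 5 to 6 rises and 2 falls for embryo, 7 to 10 rises and 0 falls for seed coat, 3 to 5 rises and 1 fall for endosperm, and 0 to 1 rises and 0 falls for leaf and silique wall. The summed signal of each list, as a log2 ratio of the crosses, ran over the 4 arrays from 0.40 to 0.53 for embryo, 0.72 to 0.88 for endosperm, 0.56 to 0.65 for seed coat, and 0.01 to 0.36 for leaf and silique wall. All of these summed ratios were above 0, for embryo markers and for markers of other tissues. In the bdl cross the summed signals themselves ran from 29544 to 58397 for embryo and 17889 to 25990 for endosperm. They ran from 177160 to 285720 for seed coat and 178150 to 238510 for leaf and silique wall. Sums over different genes do not measure shares of tissue. A sum follows the brightest genes, and single markers differed. Negative ratios were found in 4 of 13 embryo, 4 of 12 endosperm, 1 of 19 seed coat and 0 of 5 leaf and silique wall markers. The part of these tissues in the results below was not tested.

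**Figure D1:**
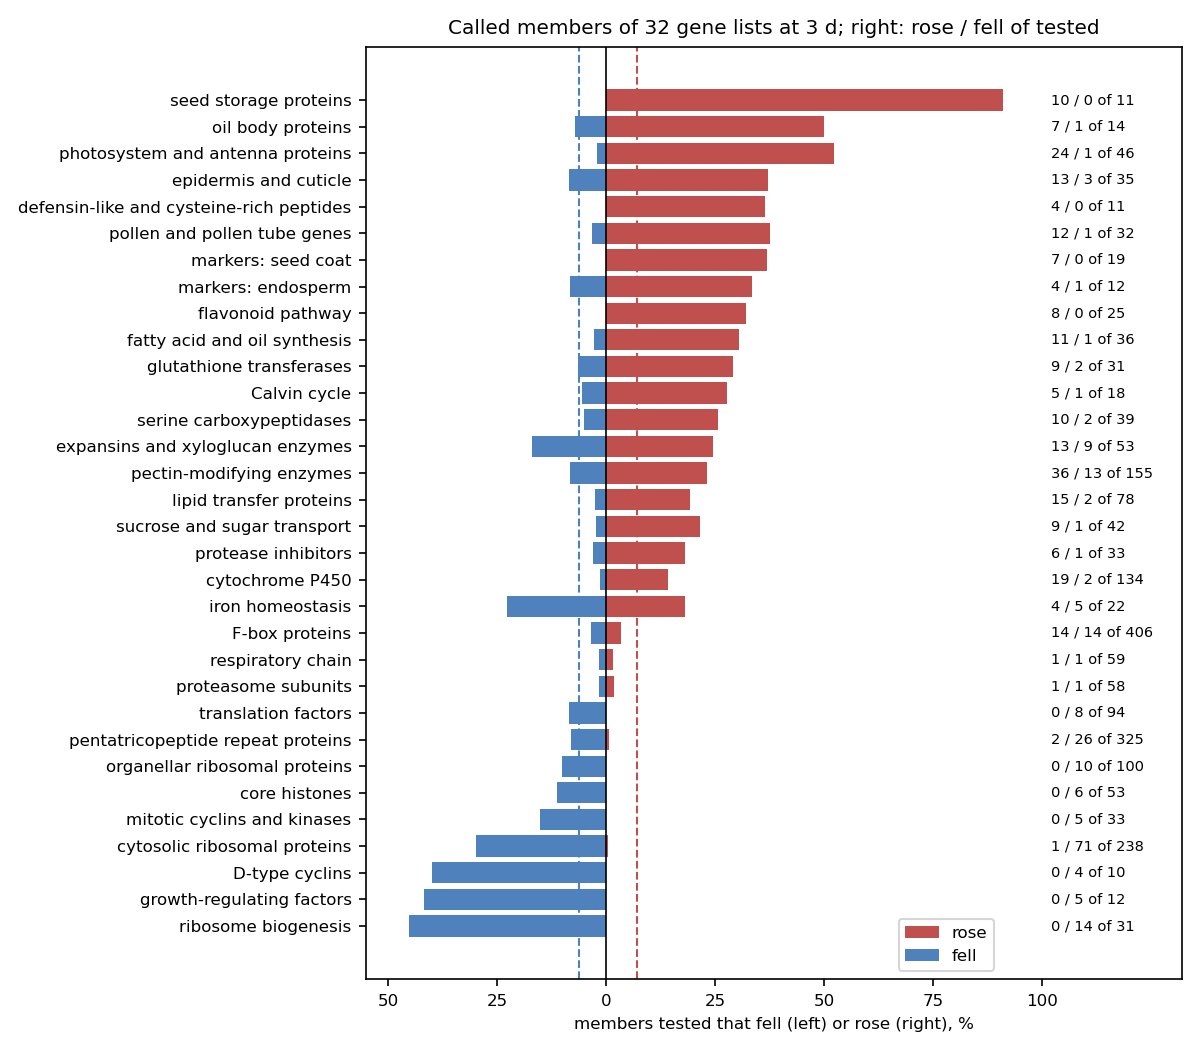
Share of tested members of 32 gene lists that rose (right of 0) or fell (left of 0) in the bdl cross at 3 d, in percent, with the counts at the right edge. Dashed lines mark the shares of all genes tested, 7.02% for rises and 6.13% for falls. The rises reach farthest for storage proteins, photosystem and antenna proteins and oil body proteins, and the falls for ribosome biogenesis, growth-regulating factors and D-type cyclins. In these counts, which include dim probes, pentatricopeptide proteins and translation factors lie near the dashed line of falls.

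IAA12 is the gene affected in bdl, and its probe read signals of 64118, 60282, 60670 and 36549 in the bdl cross on replicates 1 to 4. The Col-0 cross read 5414, 5749, 6012 and 3662 on the same arrays. Every bdl value thus lay far above every Col-0 value, a 10.6-fold difference (3.40 ± 0.11, n = 4, limma adjusted p = 0.0224). Its 3 probes read 3.40, 3.20 and 1.36. The sources used here do not say whether the transcript comes from the mutant or the wild-type copy, so its level does not verify the genotype. Nor did the difference last, with a change of −3.088 from 3 d to 6 d on the log2 scale.

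The largest changes were ranked among the 13290 tested genes above blank spots in both crosses on every array, of which 8.87% rose and 7.74% fell. Besides storage proteins and IAA12, the largest rises included genes of small defence proteins. The trypsin inhibitor gene AT1G47540 read signals of 21827, 20541, 22722 and 26668 in the bdl cross and 1782, 1979, 2171 and 2688 in the Col-0 cross, a rise of 10.7-fold (3.42 ± 0.13, limma adjusted p = 0.0224). The crosses did not overlap, and its 3 probes read 3.42, 3.41 and 3.14. A second inhibitor gene, AT2G38870, gave log2 ratios of 3.28, 3.11, 3.20 and 3.08 and rose 8.99-fold. LCR67, which encodes the plant defensin PDF1.1, gave 4.41, 3.80, 2.77 and 2.90 and rose 11.1-fold. Its replicates 3 and 4 were well below replicates 1 and 2, while the inhibitor genes differed little between arrays.

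Genes of other families reached the same size. AT4G23680, of the major latex protein family, read signals of 4572, 1719, 1936 and 5445 in the bdl cross and 298, 152, 179 and 662 in the Col-0 cross, with log2 ratios of 3.94, 3.50, 3.43 and 3.04 (11.1-fold). The crosses did not overlap even though its signal varied several-fold between arrays. AT3G58410, for a protein with meprin and TRAF homology, gave 3.48, 3.51, 3.31 and 3.27 (10.5-fold). Outside the 12 largest, the serine carboxypeptidase-like gene scpl44 (3.14 ± 0.10) and the glutaredoxin family gene AT5G11930 (3.00 ± 0.10) rose about 8-fold on arrays that hardly differed.

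Among these well-measured genes the deepest fall was that of AHP6 (HP6), which inhibits cytokinin signalling, with signals of 388, 409, 408 and 468 in the bdl cross and 10343, 8358, 8721 and 6568 in the Col-0 cross. Its log2 ratios of −4.74, −4.35, −4.42 and −3.81 left the crosses far apart, a fall of 20.1-fold (−4.33 ± 0.38, limma adjusted p = 0.0224). FIL (AFO), a YABBY gene of organ polarity (−3.07 ± 0.56), the Aux/IAA gene IAA19 (−3.03 ± 0.28) and DRNL, an AP2-type cotyledon factor (−2.90 ± 0.075), followed. ROXY1, a glutaredoxin gene known from petal development, read signals of 670, 906, 780 and 818 in the bdl cross and 8694, 6076, 5418 and 3757 in the Col-0 cross, and fell 7.26-fold (−2.86 ± 0.62, limma adjusted p = 0.0302). Its spread was wide but no bdl value reached a Col-0 value. STY1, a zinc-finger regulator of the SHI family that promotes auxin synthesis genes, gave log2 ratios of −2.71, −2.39, −2.29 and −2.38 and fell 5.44-fold. The remorin gene AT1G53860, whose family sits at the plasma membrane, gave −3.25, −2.77, −2.93 and −3.04 and fell 7.98-fold. Further members of the 12 largest falls were AT2G14247, which has no described product in the annotation (−2.73), the lipase gene AT1G71691 (−2.60), the peroxidase gene AT4G31760 (−2.55), the jacalin lectin gene AT1G52070 (−2.52) and the major latex protein gene MLP28 (−2.50). Each of these 5 was negative on all 4 arrays. AT4G31760 varied most among them, from −2.97 to −1.80, with replicate 4 the weakest. The 3 probes of MLP28 read −2.50, −2.33 and −1.78, and those of AT1G71691 −2.60, −2.31 and −2.16.

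**Figure D2:**
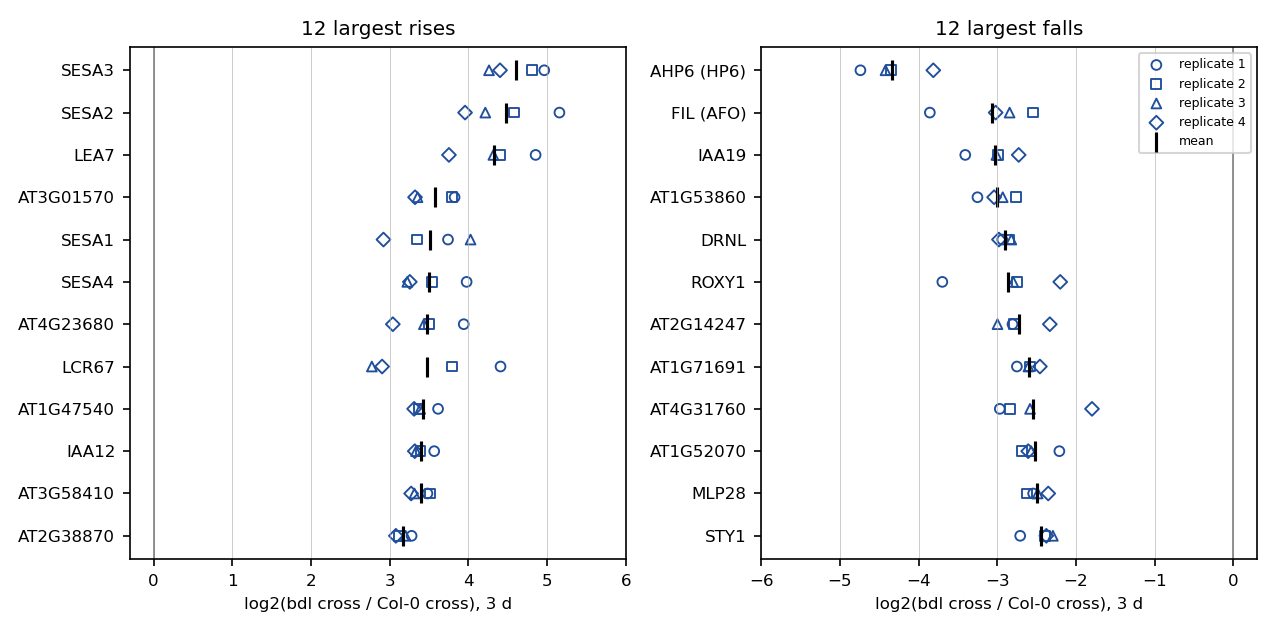
log2(bdl cross / Col-0 cross) on each of the 4 arrays (symbols) and their mean (bar) for the 12 largest rises and 12 largest falls among called genes measured above blank spots in both crosses on every array. Rises run from 3.17 to 4.61 and falls from −4.33 to −2.44, and for each gene all 4 arrays lie on the same side of 0.

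Among genes of seed reserves, rises outnumbered falls in each list. Of 11 storage protein genes tested, 10 rose and 0 fell (median 3.58), against the 7.02% of all genes that rose, and with 1 array left out the counts were 7 to 9 rises and 0 falls. On at least 3 arrays, all 11 exceeded blank spots in the bdl cross but only 7 in the Col-0 cross, so some ratios rest on a Col-0 signal near blank. Where both channels had to exceed blank spots on every array, 6 of 7 rose and 0 fell (median 3.5). Of all 13314 genes in that fit, 2761 rose. SESA1, a 2S albumin gene, gave 3.74, 3.34, 4.03 and 2.92. SESA4, of the same family, gave 3.98, 3.54, 3.22 and 3.26. In each, replicate 4 was among the lowest arrays, and all were strongly positive. SESA1 to SESA4 are neighbours of closely similar sequence whose probes may share signal, so they are not 4 separate findings. Of 14 oil body genes 7 rose and 1 fell (median 0.92; 7 to 8 rises and 0 falls with 1 array left out). Among them the oleosin gene AT3G01570, for a coat protein of oil bodies, gave 3.82, 3.79, 3.35 and 3.32 and rose 11.9-fold. Of 24 late embryogenesis abundant genes, which protect drying seeds, 7 rose and 3 fell (median 0.58; 6 to 9 rises and 3 falls with 1 array left out). Both medians were smaller where both channels had to exceed blank spots on every array. The oil body list then gave 7 rises and 1 fall of 11 (median 0.46). The late embryogenesis abundant list gave 7 rises and 3 falls of 16 (median 0.22).

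Fatty acid and oil synthesis genes were shifted in the same direction by less. Of 36 genes 11 rose and 1 fell (median 0.31; 9 to 18 rises and 0 to 1 falls with 1 array left out). WRI1, the AP2-type factor that turns on fatty acid synthesis, gave 1.28, 1.09, 1.09 and 1.06, and its 3 probes read 1.13, 1.36 and 1.80. ACP1, an acyl carrier protein gene of the pathway, gave 0.51, 0.82, 0.76 and 0.91. MOD1, which encodes the enoyl reductase of the plastid synthase, gave 0.76, 0.59, 0.73 and 0.82. All arrays were positive in these 3 genes. ROD1, which moves fatty acids of membrane lipid toward oil, rose 2.12-fold (1.09 ± 0.11, limma adjusted p = 0.0291). The fall was that of LPAT2, an acyltransferase gene of the endoplasmic reticulum (−0.42, adjusted p = 0.044), and it ended without replicate 2 (adjusted p = 0.0506 with no dye term). Among 16 maturation regulators 5 rose and 2 fell (median 0.39; 4 to 6 rises and 2 falls with 1 array left out). The bZIP gene ABI5, which acts late in maturation, was among those that fell (−0.58 ± 0.10).

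Lipid transfer proteins are small secreted carriers of lipids. Of 78 genes 15 rose and 2 fell (median 0.17; 14 to 15 rises and 0 to 6 falls with 1 array left out). LTP12, a gene known from anthers, gave 2.56, 2.93, 2.98 and 2.41 and rose 6.59-fold. LTP2, known from the cuticle, read signals of 2436, 3340, 2728 and 5146 in the bdl cross and 707, 1120, 851 and 1720 in the Col-0 cross and rose 3.15-fold (1.66 ± 0.10). Its bdl values stayed above all its Col-0 values. AT5G38160, of the same family, gave 1.56, 1.65, 1.73 and 1.62. LTPG1, a lipid transfer protein anchored at the plasma membrane, fell (−0.45, adjusted p = 0.0479), but not without replicate 2 or replicate 3 (adjusted p = 0.0519 and 0.0548 with no dye term).

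Plastid genes split by function. Of 46 genes of photosystem and antenna proteins, which capture light and drive electron transport, 24 rose and 1 fell (median 0.66; 19 to 34 rises and 1 fall with 1 array left out), and 45 had a positive ratio. The antenna gene LHCA2 gave 1.09, 1.05, 1.10 and 0.84. PSBO2, of the oxygen-evolving complex, gave 1.06, 1.29, 0.81 and 0.79. The antenna gene LHCB4.2 gave 0.95, 0.87, 1.02 and 0.93. These were changes of about 2-fold with every array positive. The fall was that of PnsL2, a subunit of the NDH complex that resembles PsbQ (−0.66 ± 0.066). Of 18 Calvin cycle genes 5 rose and 1 fell (median 0.36; 4 to 10 rises and 1 fall with 1 array left out). The aldolase gene FBA2 (0.75 ± 0.10) and the plastid triosephosphate isomerase gene TIM (0.70 ± 0.14) rose, whereas RBCS2B, a small subunit gene of Rubisco, fell (−0.54 ± 0.090).

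Chlorophyll synthesis genes gave 7 rises and 0 falls of 21, with a median of only 0.09 (5 to 6 rises and 0 to 1 falls with 1 array left out). GUN5, a subunit of the magnesium chelatase that starts the chlorophyll branch, gave 0.86, 0.78, 0.84 and 0.65. CRD1, a subunit of the ring-closing cyclase, gave 0.74, 0.48, 0.70 and 0.71, with replicate 2 the lowest. GUN4, which activates the chelatase, read 0.92 ± 0.25 (adjusted p = 0.0369) and lost its call without replicate 2 (adjusted p = 0.0528 with no dye term).

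Genes for the organelles' own machinery gave few rises, and falls in shares that depended on the filter for dim probes. Of 100 organellar ribosomal protein genes 0 rose and 10 fell (median −0.16; 0 to 3 rises and 8 to 23 falls with 1 array left out). RPL3P, of the plastid large subunit, gave −0.62, −0.73, −0.74 and −0.72. Of 325 genes of pentatricopeptide repeat proteins, which process organelle RNA, 2 rose and 26 fell (median −0.27), a share of falls near that of all genes. Yet 250 of them had a negative ratio. Where both channels had to exceed blank spots on every array, 2 of 155 rose and 64 fell, and of all 13314 genes in that fit 2614 fell. The organellar ribosomal list then gave 8 rises and 31 falls of 93. With 1 array left out the pentatricopeptide list gave 0 to 1 rises and 15 to 43 falls, the lowest without replicate 2. Among the falls of that list were AT3G02010 (−1.05 ± 0.17) and AT1G33350 (−0.97 ± 0.20).

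Ribosome genes gave many falls and hardly any rises. Of 31 ribosome biogenesis genes 0 rose and 14 fell, against the 6.13% of all genes that fell (median −0.51; 0 to 1 rises and 10 to 17 falls with 1 array left out), and 29 had a negative ratio. The gene AT1G52930 of a Brix-domain protein, a family that assembles ribosomes, gave −1.08, −1.15, −1.16 and −1.11 and fell 2.18-fold (limma adjusted p = 0.0266). NOP10, of the complexes that modify ribosomal RNA, gave −1.06, −1.11, −0.99 and −0.89. PPAN, a large-subunit assembly gene, gave −0.78, −0.59, −1.09 and −0.99. No array was positive in these genes. Of 238 cytosolic ribosomal protein genes 1 rose and 71 fell (median −0.36; 1 rise and 49 to 109 falls with 1 array left out). RPSAb, of the small subunit, read signals of 2944, 9430, 3609 and 7528 in the bdl cross and 6751, 18414, 7811 and 15000 in the Col-0 cross. Signal varied more between arrays than between crosses, so the crosses overlapped, but within each array the bdl value was the lower, with log2 ratios of −1.20, −0.97, −1.11 and −0.99 and a fall of 2.10-fold. The rise was that of AT3G28500, an acidic P2 protein gene (0.54 ± 0.047).

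Other parts of protein synthesis differed less. Of 94 translation factor genes 0 rose and 8 fell (median −0.18; 0 to 3 rises and 5 to 18 falls with 1 array left out, the fewest falls without replicate 2), with the eIF4A-like gene AT1G51380 at −0.90 ± 0.075. Of 49 aminoacyl-tRNA synthetase genes, which charge tRNAs, 0 rose and 2 fell (median −0.19; 0 to 1 rises and 1 to 7 falls with 1 array left out). Proteasome subunits gave 1 rise and 1 fall of 58 (median −0.03; 0 rises and 1 to 5 falls with 1 array left out) and respiratory chain genes 1 and 1 of 59 (median −0.02; 0 to 1 rises and 1 to 3 falls). Those shares lay below the shares of all genes.

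Cyclin genes gave falls and no rises, while the share of DNA replication genes that fell depended on the filter for dim probes. Of 33 mitotic cyclin and kinase genes 0 rose and 5 fell (median −0.32; 0 rises and 4 to 10 falls with 1 array left out), and 0 of them were positive on all 4 arrays. The A-type cyclin genes CYCA2;3 (−0.84 ± 0.13) and CYCA1;1 (−0.71 ± 0.048) fell. Of 10 D-type cyclin genes, which bring cells into the cycle, 0 rose and 4 fell, the same counts with any array left out. The median of that list was only −0.10, and 4 of its genes had a positive ratio. CYCD1;1 gave −0.99, −0.94, −0.89 and −0.74. DNA replication genes gave 0 rises and 3 falls of 35 (median −0.20; 0 to 1 rises and 3 to 6 falls with 1 array left out), including TSO2, a ribonucleotide reductase subunit (−0.84 ± 0.19), and PCNA1, the sliding clamp of DNA polymerase (−0.58 ± 0.060). Of 53 core histone genes 0 rose and 6 fell (median −0.24; 0 to 1 rises and 3 to 13 falls with 1 array left out, the lowest without replicate 2), with the H2A gene HTA8 at −0.99 ± 0.15. Kinesins, motor proteins of the spindle and cytoskeleton, gave 2 rises and 0 falls of 55 (2 to 8 rises and 0 to 3 falls with 1 array left out). Where both channels had to exceed blank spots on every array, DNA replication genes gave 1 rise and 12 falls of 27. Core histones then gave 2 rises and 22 falls of 45, mitotic cyclins and kinases 0 and 16 of 27, and kinesins 9 and 6 of 39. Of all 13314 genes in that fit 2761 rose and 2614 fell.

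Growth-regulating factors and their coactivators, which keep leaf and organ cells dividing, fell in 5 of 12 members with 0 rises (median −0.44; 0 rises and 4 to 7 falls with 1 array left out). The coactivator gene AN3 (GIF1) gave −1.58, −1.39, −1.43 and −1.05 and fell 2.57-fold (limma adjusted p = 0.0295). GRF9 gave −0.68, −0.85, −0.73 and −0.72, nearly the same on every array. GRF1 read −0.57 ± 0.13 (adjusted p = 0.0472) and lost its call without replicate 3 (adjusted p = 0.0542 with no dye term).

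Cell wall genes moved in both directions. Expansins, which loosen walls as cells grow, and enzymes that cut and join xyloglucan gave 13 rises and 9 falls of 53 (median 0.12; 9 to 15 rises and 9 to 10 falls with 1 array left out). The expansin gene EXPA15 gave −1.65, −1.65, −1.88 and −1.66, with replicate 3 apart from the rest. EXPA5, of the same family, gave −1.26, −1.09, −1.08 and −1.05. The xyloglucan transferase gene XTH4 gave −2.02, −2.10, −2.02 and −1.82, a fall of 3.97-fold. XTH7 (1.29 ± 0.13), XTH33 (1.24 ± 0.22) and XTH16 (1.09 ± 0.065), of the same enzyme family, rose.

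Pectin-modifying enzymes gave 36 rises and 13 falls of 155 (median 0.30; 32 to 45 rises and 9 to 11 falls with 1 array left out). Among the falls, the pectate lyase gene AT4G24780 fell 3.67-fold (−1.88 ± 0.18). Arabinogalactan proteins, heavily glycosylated wall proteins, gave 8 rises and 5 falls of 45 (5 to 11 rises and 3 to 5 falls with 1 array left out, the lowest without replicate 2), with AGP26 among the falls (−1.02 ± 0.17). Of 41 peroxidase and laccase genes, which cross-link wall polymers, 7 rose and 2 fell (6 to 8 rises and 2 to 3 falls with 1 array left out). The peroxidase genes AT1G77100 (2.66 ± 0.44, with a Col-0 signal above blank spots on 3 arrays) and PRXR1 (1.26 ± 0.27) were among the rises.

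Several of the largest wall rises were in genes known from pollen. The exopolygalacturonase gene AT3G07850 gave 3.96, 2.88, 3.33 and 2.71, with a Col-0 signal above blank spots on 2 of 4 arrays. The pectin methylesterase gene VGD1, needed for pollen tube growth, gave 2.88, 1.95, 2.87 and 2.31. Its relative VGDH2 gave 2.23, 2.35, 2.88 and 2.80. In a list of 32 pollen and pollen tube genes, put together after these values were seen, 12 rose, all by at least 2-fold, and 1 fell (median 1.06; 10 to 14 rises and 0 to 1 falls with 1 array left out). The rises also held the signalling peptide genes RALFL8 (2.05 ± 0.14) and RALFL26 (2.01 ± 0.071) and the calcium-dependent kinase gene CPK24 (2.07 ± 0.30). COBL10 (2.12 ± 0.39), for a membrane-anchored protein of the tube, and ANX2 (2.10 ± 0.57), a receptor kinase gene that keeps the tube wall intact, had Col-0 signals above blank spots on 2 arrays each. The summed signal of the list was higher in the bdl cross on every array, by 0.87 to 1.11 on the log2 scale. Of 5 pollen markers in the general marker set, 1 rose and 0 fell (median 0.29). The rise was that of VGD1, given above, so this set is not separate evidence. The summed ratio of the 4 markers with a value on every array ran from 0.60 to 1.41. The part of pollen RNA in the wall counts was not tested.

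Epidermis and cuticle genes gave 13 rises and 3 falls of 35 (median 0.37; 9 to 13 rises and 1 to 3 falls with 1 array left out, the lowest without replicate 2). HDG1, a homeobox gene of the outer cell layer, gave 1.34, 1.32, 1.39 and 0.96 and rose 2.39-fold, with replicate 4 the lowest. The wax gene CER2 (1.24 ± 0.20) and KCS6, an elongase gene for very long chain fatty acids (0.85 ± 0.043), rose. PDF1, a protodermal marker gene, fell (−1.15 ± 0.32), and so did the wax ester synthase gene WSD1 by a small amount (−0.40, adjusted p = 0.0449). The call of WSD1 ended without replicate 2 or replicate 3 (adjusted p = 0.0552 and 0.0608 with no dye term). GDSL lipases, esterases that include cutin-forming enzymes, gave 5 rises and 2 falls of 53 (5 to 9 rises and 2 to 6 falls with 1 array left out), and AT5G22810 fell 2.93-fold (−1.55 ± 0.10).

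Iron genes gave 4 rises and 5 falls of 22, against 13.1% of all genes in either direction (3 to 5 rises and 4 to 5 falls with 1 array left out), with opposite changes that repeated closely. FER1, a plastid ferritin gene that stores iron and is known to rise when iron is plentiful, read signals of 4765, 7148, 5160 and 10367 in the bdl cross and 1069, 1629, 1148 and 2259 in the Col-0 cross. The bdl values exceeded all Col-0 values, and the log2 ratios of 2.16, 2.13, 2.17 and 2.20 gave a rise of 4.48-fold (limma adjusted p = 0.0224). FRO3, a mitochondrial ferric reductase gene known to rise when iron is short, read 1804, 1557, 821 and 1230 in the bdl cross and 8575, 7908, 3750 and 5600 in the Col-0 cross. Its bdl values all lay below its Col-0 values, with log2 ratios of −2.25, −2.34, −2.19 and −2.19 and a fall of 4.73-fold. Other genes known to be induced by iron shortage fell as well. OPT3, an iron transporter of the phloem, gave −1.17, −1.13, −0.90 and −1.53. BTS, a ligase that restrains the iron response, gave −0.82, −0.88, −0.89 and −0.69.

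Not all iron genes followed that division. IRT2, an iron transporter gene of the root epidermis, gave 0.47, 0.62, 0.70 and 0.78 and rose. MYB10, a factor gene induced by iron shortage, gave 0.88, 0.70, 0.71 and 0.59 and rose. PYE, a bHLH gene that regulates the response, read −0.88 ± 0.33 (adjusted p = 0.049), but its call ended without replicate 1, 2 or 3 (adjusted p = 0.0662, 0.0533 and 0.0691 with no dye term). BHLH100, another bHLH gene of the response, read −0.47 (adjusted p = 0.0454) with probes at −0.47, −1.04 and −3.70, the last on 2 arrays, and with its probes averaged it did not pass (adjusted p = 0.0548). NRAMP3, which releases iron from the vacuole, read 0.40 (adjusted p = 0.0471), a call that ended without replicate 1, 2 or 3 (adjusted p = 0.051, 0.064 and 0.0513). FER4, a second ferritin gene, gave 0.59, 0.84, 0.91 and −0.36 and did not pass (adjusted p = 0.278). Its replicate 4 opposed the others, and without that array it read 0.78 (adjusted p = 0.0275 with no dye term). VIT1 (0.03, adjusted p = 0.843), NRAMP1 (0.21, adjusted p = 0.131) and YSL2 (−0.18, adjusted p = 0.217), all metal transporters, did not pass either.

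**Figure D3:**
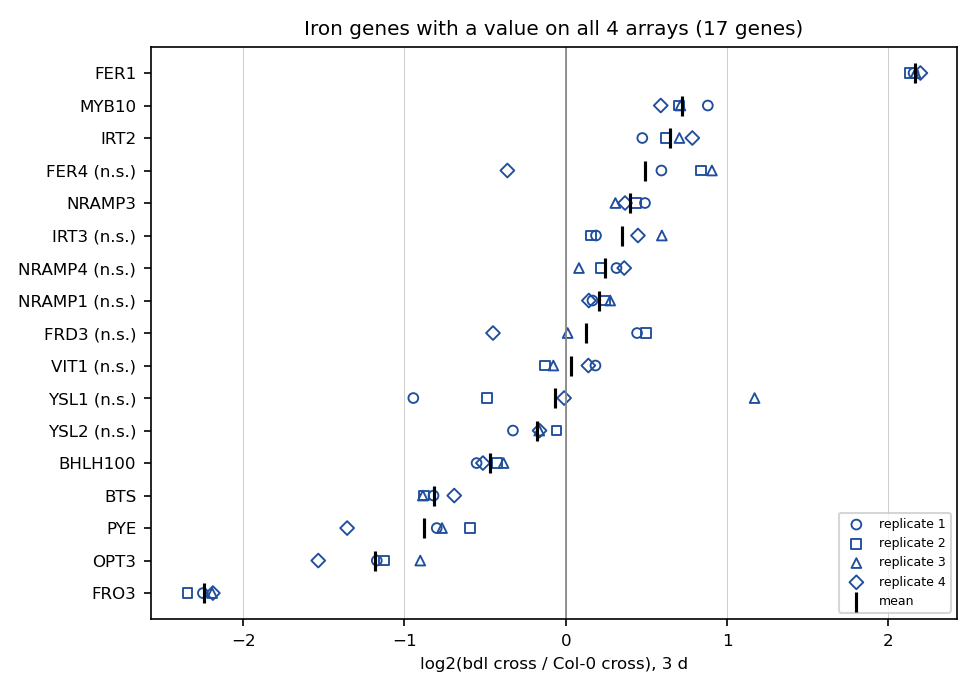
Log2 ratio on each of the 4 arrays (symbols) and mean (bar) for the 17 iron genes with a value on every array, with n.s. beside genes that did not pass. FER1 stands near 2.2 and FRO3 near −2.2, each with arrays that lie almost on top of one another, while FER4 and YSL1 spread to both sides of 0.

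Among small defence proteins more genes rose than fell. Defensin-like genes gave 4 rises and 0 falls of 11 (median 0.53; 3 to 4 rises and 0 falls with 1 array left out). Besides LCR67, PDF2.1 gave 1.46, 1.33, 1.28 and 1.60. PDF1.2c gave 0.63, 0.82, 0.70 and 0.71. Of 33 protease inhibitor genes, a list drawn up after their values were seen, 6 rose and 1 fell (median 0.27; 6 to 9 rises and 1 to 2 falls with 1 array left out). They include the trypsin inhibitor gene TI1 (1.34 ± 0.12) and the cystatin gene AT5G47550 (1.11 ± 0.11), while the serpin gene SRP3 fell (−0.83 ± 0.12). Genes of NBS-LRR proteins, the intracellular immune receptors, gave 4 rises and 6 falls of 114, smaller shares than among all genes (4 to 7 rises and 3 to 9 falls with 1 array left out, the most rises without replicate 1 or 2). Only 77 of the 114 exceeded blank spots on at least 3 arrays in the bdl cross, against 16828 of all 19229 genes, and the shares are not matched for signal.

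Among enzymes that modify or conjugate small molecules, more genes rose than fell. Of 134 cytochrome P450 genes 19 rose and 2 fell (median 0.17; 15 to 27 rises and 1 to 4 falls with 1 array left out). CYP81D7 gave 4.50, 3.79, 4.08 and 2.80. CYP81D2 gave 2.00, 2.03, 1.62 and 1.36. Both were weakest on replicate 4. Of 31 glutathione transferase genes, which tag toxic compounds, 9 rose and 2 fell (median 0.18; 7 to 9 rises and 1 to 3 falls with 1 array left out). GSTU19 gave 1.57, 1.46, 1.49 and 1.19, GSTU23 read 1.62 ± 0.37 with a Col-0 signal above blank spots on 2 arrays, and GSTU27 was among the falls (−1.20 ± 0.085). UGT73B4, a glucosyltransferase gene, rose 8.38-fold (3.07 ± 0.31), in a family that gave 5 rises and 2 falls of 47 (4 to 7 rises and 1 to 3 falls with 1 array left out, the fewest falls without replicate 2 or 3).

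Serine carboxypeptidase-like genes, which include acyltransferases, gave 10 rises and 2 falls of 39 (median 0.35; 8 to 12 rises and 1 to 4 falls with 1 array left out), with scpl25 at 1.14 ± 0.037 and SCPL45 at −1.57 ± 0.12. Genes that the files describe as major latex-like gave 3 rises and 0 falls of 10 (3 rises and 0 to 1 falls with 1 array left out). That list does not hold MLP28, one of the largest falls, which the files describe by its Bet v I domain. Lists drawn up after their values were seen gave 5 rises and 3 falls of 26 glutaredoxins, 3 and 1 of 29 jacalin lectins, and 3 and 0 of 34 meprin and TRAF homology genes. With 1 array left out these gave 2 to 5 rises and 2 to 3 falls, 2 to 5 rises and 1 fall, and 1 to 5 rises and 0 to 2 falls. The fewest rises of glutaredoxins came without replicate 2, and those of the meprin and TRAF list without replicate 3.

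Flavonoid genes that changed all rose, by less than 2-fold. Of 25 genes of the pathway 8 rose and 0 fell (median 0.44; 8 to 11 rises and 0 falls with 1 array left out), and 22 were positive. Chalcone synthase (TT4), the first enzyme of the pathway, gave 0.82, 0.94, 1.03 and 0.75. Chalcone isomerase (TT5), which follows it, gave 0.72, 0.69, 0.74 and 0.73. Flavonol synthase (FLS1) gave 0.79, 0.80, 0.78 and 0.74, hardly differing between arrays. The reductase gene DFR (0.65 ± 0.020) and the dioxygenase gene LDOX (0.64 ± 0.10), which lead to the seed coat pigments, rose too. TT1, a zinc-finger factor of the seed coat, rose 1.98-fold. BAN, the reductase gene that defines the pigmented inner seed coat layer, read 0.44 ± 0.11 and did not pass (adjusted p = 0.055), and TT2, the MYB factor that controls it, read 0.19 ± 0.092 (adjusted p = 0.147). Many of these genes are themselves in the seed coat marker list given above, so the flavonoid and seed coat counts are not separate evidence.

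Endosperm genes differed among themselves. SUC5, an endosperm sucrose transporter gene, gave 0.85, 0.87, 0.84 and 0.87. AGL28, a MADS-box gene, gave 0.67, 0.59, 0.62 and 0.67, and both repeated closely. MPC (1.13 ± 0.13) and AGL36 (1.39 ± 0.40), both known as expressed from the maternal genome in endosperm, rose, AGL36 not without replicate 3 (adjusted p = 0.0529 with no dye term). AGL90, another endosperm MADS-box gene, fell, with −0.56, −0.49, −0.47 and −0.45. Other MADS-box genes included rises of AGL87 (1.26 ± 0.18) and AGL80 (0.93 ± 0.27), a factor of the central cell, and a fall of AGL83 (−1.10 ± 0.24). The 3 probes of AGL87 disagreed, at 1.26, 1.60 and −0.61, the last on 3 arrays. The MADS-box family gave 9 rises and 3 falls of 64 (6 to 14 rises and 2 to 5 falls with 1 array left out).

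Transcription factor families differed in their shares. Rises made up 15.1% of homeobox and 14.1% of MADS-box genes, against 7.02% of all genes, and falls 14.3% of AP2 and ERF genes and 23.5% of Dof genes, against 6.13%. The homeobox family gave 11 rises and 2 falls of 73 (9 to 12 rises and 2 to 5 falls with 1 array left out), among them WOX2, a gene of the apical lineage in the early embryo, at 1.45, 1.92, 1.58 and 1.00. MYB factors gave 9 rises and 2 falls of 81 (9 to 12 rises and 2 to 4 falls with 1 array left out), with MYB62 at 1.57 ± 0.11. WER (MYB66), which patterns hair and non-hair cells of the root epidermis, gave −2.63, −2.23, −2.16 and −2.15 and fell 4.90-fold (limma adjusted p = 0.0224). Of 63 AP2 and ERF factors 4 rose and 9 fell (3 to 6 rises and 7 to 11 falls with 1 array left out), and DREB1A, a cold-response activator, was a rise (0.87 ± 0.13).

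Of 17 Dof factors 0 rose and 4 fell (median −0.19; 0 to 1 rises and 1 to 4 falls with 1 array left out, the lowest without replicate 2 or 3). OBP1, a Dof gene that promotes the cell cycle, gave −1.66, −1.62 and −1.50 on the 3 arrays that measured it. DOF2.4 read −1.52 ± 0.47 (adjusted p = 0.0385), a call that ended without replicate 2 or replicate 3 (adjusted p = 0.0538 and 0.0556 with no dye term). WRKY factors gave 1 rise and 4 falls of 41 (0 to 2 rises and 3 to 4 falls with 1 array left out), with WRKY39 at −1.25 ± 0.13. Nuclear factor Y subunits gave 3 rises and 3 falls of 33 (2 to 6 rises and 2 to 4 falls with 1 array left out), with NF-YC5 at 1.29 ± 0.21 and NF-YA4 at −0.72 ± 0.15. F-box proteins, substrate adaptors of ubiquitin ligases, gave 14 rises and 14 falls of 406, well under the shares of all genes (12 to 24 rises and 9 to 23 falls with 1 array left out, the fewest falls without replicate 3). Only 314 of the 406 exceeded blank spots on at least 3 arrays in the bdl cross, against 16828 of all 19229 genes. Dim probes gave fewer calls, and the shares are not matched for signal.

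Jasmonate genes gave 6 rises and 1 fall of 30 (median 0.13; 4 to 7 rises and 1 to 4 falls with 1 array left out). LOX1, a lipoxygenase gene, gave 1.03, 0.81, 0.85 and 1.27. JAZ6, for a repressor of the pathway, gave 1.03, 0.89, 0.82 and 0.80. JAZ1, for another, gave 0.55, 0.52, 0.59 and 0.42. JAZ8, of the same family, fell (−1.17 ± 0.17). Cytokinin genes gave 3 rises and 6 falls of 47 (2 to 5 rises and 5 to 7 falls with 1 array left out), with AHP6 the deepest of the falls. CRF1, a response factor gene, gave −1.76, −1.68, −1.71 and −1.51 and fell 3.17-fold. LOG7, which activates cytokinin, gave 0.97, 0.91, 0.95 and 0.93. RR5, a response regulator gene that cytokinin induces, read 0.86 ± 0.31 (adjusted p = 0.038), but did not pass without replicate 1, 2 or 3 (adjusted p = 0.0633, 0.0724 and 0.0725 with no dye term). Ethylene genes gave 2 rises and 1 fall of 22, abscisic acid genes 2 and 1 of 33, brassinosteroid genes 2 and 0 of 25 and gibberellin genes 1 and 2 of 26, close to or below the share of all genes. With 1 array left out these gave 1 to 3 rises and 0 to 1 falls, 2 to 3 rises and 0 to 1 falls, 2 to 4 rises and 0 to 2 falls, and 1 to 2 rises and 2 falls.

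Genes of CLE and other small signalling peptides gave 7 rises and 5 falls of 57 (5 to 8 rises and 4 to 7 falls with 1 array left out). CLV3, the stem cell peptide of the shoot meristem, gave the highest log2 ratio of any called gene. It read signals of 149, 574, 520 and 1022 in the bdl cross and 3, 35, 5 and 73 in the Col-0 cross, with log2 ratios of 5.72, 4.02, 6.59 and 3.80 (limma adjusted p = 0.0407). The Col-0 signal exceeded blank spots on only 1 array, which leaves the size of the rise poorly known. The probes of the gene read 5.03, 2.32 and −0.08. With its probes averaged it read 2.42, and with 50 added to both channels 2.82. The rises also held RALFL8 and RALFL26, given above with the pollen genes. CLE19, which acts in the embryo and cotyledon, gave −2.55, −2.15, −2.19 and −1.82 and fell 4.53-fold (limma adjusted p = 0.0271), with a bdl signal above blank spots on 3 arrays. CLE17 gave −1.03, −1.30, −1.34 and −0.78. CLE16 gave −0.63, −0.86, −0.65 and −0.67. These 3 CLE genes fell. Leucine-rich repeat receptor kinases gave 8 rises and 11 falls of 137 (5 to 15 rises and 9 to 16 falls with 1 array left out, the fewest rises without replicate 2), with AT2G25790 (−1.93 ± 0.28) and TMKL1 (−1.40 ± 0.23) among the falls. Among 162 calcium and calmodulin genes 14 rose and 7 fell (12 to 21 rises and 6 to 12 falls with 1 array left out), and IQD6, which binds calmodulin at microtubules, fell 5.28-fold (−2.40 ± 0.21).

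Transport genes held some of the closest repeats. SWEET9, a sucrose exporter known from nectaries, read signals of 2153, 2163, 2441 and 862 in the bdl cross and 10064, 10755, 12357 and 4041 in the Col-0 cross. Every bdl value lay below every Col-0 value, and log2 ratios of −2.23, −2.31, −2.34 and −2.23 gave a fall of 4.85-fold (limma adjusted p = 0.0224). WAT1, which exports auxin from the vacuole, gave −2.06, −2.05, −2.04 and −2.17 and fell 4.22-fold. SWEET9 was the fall in the list of sucrose and sugar transport genes, which gave 9 rises and 1 fall of 42 (median 0.23; 9 to 13 rises and 1 to 4 falls with 1 array left out). The rises included the sucrose synthase gene SUS2 (AT5G49190, 1.38 ± 0.13), the sucrose-phosphate synthase gene SPS3F (2.02 ± 0.45, with a Col-0 signal above blank spots on 2 arrays) and AtVEX1, a SWEET-family gene known from pollen (0.96 ± 0.12). Of 92 amino acid and peptide transporters 5 rose and 4 fell (3 to 9 rises and 4 to 6 falls with 1 array left out, the fewest rises without replicate 1 or 2). NRT1.1, a nitrate transporter and sensor gene, gave −0.45, −0.43, −0.47 and −0.48. SIAR1, an amino acid transporter gene, gave −0.56, −0.57, −0.70 and −0.64. Both fell by small, steady amounts, and the peptide transporter gene AT3G16180 rose (1.52 ± 0.13). Of 29 aquaporins 3 rose and 2 fell (3 to 5 rises and 3 to 4 falls with 1 array left out). The plasma membrane water channel gene PIP1;4 gave −1.11, −1.18, −1.09 and −1.10, a fall, and the genes of the vacuolar channels TIP2 and GAMMA-TIP read 0.77 ± 0.035 and 0.64 ± 0.14. The 3 probes of PIP1;4 read −1.12, −0.57 and −0.89.

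Copies of mitochondrial genes on chromosome 2 were counted as a list after their values were seen. Of 17 such loci 0 rose and 3 fell, all 3 by over 2-fold (0 to 1 rises and 3 falls with 1 array left out). AT2G07751, for a subunit of complex I, gave −1.68, −1.63, −1.57 and −1.43. AT2G07679, annotated as a ribosomal protein gene, gave −1.28, −1.33, −1.44 and −1.44. AT2G07675, for ribosomal protein S12, gave −1.38, −1.32, −1.34 and −1.36. Other copies did not pass. Cytochrome b (AT2G07727) gave 0.86, 0.49, 0.42 and 0.69 and cytochrome oxidase subunit 3 (AT2G07687) gave −0.20, −0.05, −0.11 and −0.79, with adjusted p of 0.0551 and 0.269. A probe for such a locus may read the near-identical mitochondrial gene as well, and the array cannot separate them.

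Calls were mostly scattered over the genome. Between 6.28% and 7.66% of tested genes rose on each of the 5 chromosomes, and between 5.22% and 6.87% fell. There were 6 runs of at least 4 neighbouring tested genes called in the same direction, all of them rises. The longest was 5 genes on chromosome 1, the lipase genes AT1G28640 (1.53), AT1G28650 (1.44), AT1G28660 (1.63) and ARAB-1 (2.25) followed by AT1G28680 (0.90). The arrays of ARAB-1 gave 1.91, 2.30, 2.83 and 1.97, and its Col-0 signal was above blank spots on 3 of them. A run on chromosome 2 held the glycosyl hydrolase genes GH9B10 (1.07, 1.06, 1.12 and 1.03) and GH9B11 (1.20, 1.09, 1.30 and 0.97) with AT2G44580 (0.98) and DL1D (0.72). Further runs were SESA1 to SESA4, glycosyl hydrolase genes from AT4G33810 (0.96 ± 0.083) onward, MAT3 to AT2G36895 and RBL7 to GSH1. The lipase, hydrolase and albumin runs are families of close copies whose probes may share signal.

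The comparison with 6 d asked whether the same genes differed in the older embryos of the same crosses, on the value table that covers all 8 arrays. The direction of its 6 d columns was taken from the convention its 3 d columns follow. The difference between crosses changed from 3 d to 6 d in 46.4% of the 18255 genes tested, so a changed difference was common. Of the 1270 genes that rose at 3 d and had a 6 d value, 1015 kept a positive sign and 255 were negative. Of 1155 that fell, 813 stayed negative and 342 were positive.

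For 2 of the largest rises the values of the stages lay close together. AT1G47540 read 3.46 ± 0.58 at 6 d (adjusted p of the difference between stages = 0.926). AT4G23680 read 3.29 ± 0.25 (adjusted p = 0.498). AT2G38870 was higher still, at 3.95 (difference 0.78, adjusted p = 0.00801). Storage protein genes had medians of 3.79 and 3.56 over 10 genes, with a changed difference in 5, against 46.4% of all genes. LCR67 was lower at 6 d, at 1.08 ± 1.23 with arrays at 1.45, 1.51, 2.06 and −0.72, but that change did not pass without replicate 1 or replicate 2 (adjusted p = 0.0834 and 0.0702).

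The 2 iron genes with the largest called differences at 3 d lay nearer to 0 at 6 d. FER1 gave −0.13, 0.00, 0.01 and 0.18 on the 6 d arrays, on both sides of 0 (difference −2.15, adjusted p = 1.5e-05). FRO3 gave −0.35, −1.14, −0.29 and −0.07, still negative but all weaker than at 3 d (difference 1.78, adjusted p = 0.000577). In contrast, MYB10 gave 2.79, 2.53, 2.52 and 2.42, farther from 0 than at 3 d (difference 1.84, adjusted p = 2.98e-05). Over the iron list the difference between stages passed in 13 of 19 genes, 8 upward and 5 downward, against 46.4% of all genes.

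Many of the largest falls turned into higher values at 6 d. SWEET9 gave 0.99, 1.22, 1.22 and 1.12 at 6 d (difference 3.41, adjusted p = 9e-06), so no 6 d array lay below 0 and no 3 d array above it. STY1 gave 1.07, 1.02, 1.07 and 1.16, MLP28 read 1.49 ± 0.045 and the jacalin gene AT1G52070 read 1.21 ± 0.12, each positive on all 6 d arrays after being negative on all 3 d arrays. CLE19 went from −2.18 to 2.16 (adjusted p = 1.6e-05) and the cotyledon regulators DRNL and DRN (ESR1) to 2.68 and 2.35. ROXY1 and AT1G53860 reached small positive values of 0.49 and 0.34. AT1G71691 stayed lower, at −1.60 ± 0.11 (difference 1.00, adjusted p = 0.000388).

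Lists also differed between the stages. The median of cytosolic ribosomal proteins went from −0.36 at 3 d to 0.33 at 6 d over the 238 genes with both values, and the difference passed in 151 genes (130 upward and 21 downward), against 46.4% of all genes. Ribosome biogenesis genes did not follow, with medians of −0.51 and −0.69 and a passed difference in 14 of 31. The pentatricopeptide list went from −0.27 to −0.66, chlorophyll synthesis from 0.09 to −0.53 and fatty acid and oil synthesis from 0.31 to −0.17. Seed coat markers had a median of 0.38 at 3 d and 1.52 at 6 d over 18 genes, and endosperm markers 0.14 and 1.34 over 10. Embryo markers shared that direction, with 0.36 and 1.22 over 12. Leaf and silique wall markers went the other way, with 0.26 and −0.17 over 5. The 5 pollen markers had medians of 0.29 and −0.44, but the difference between stages passed in 0 of them. The larger list of pollen and pollen tube genes had medians of 1.025 and 1.099 over 27 genes. There the difference passed in 5 genes, all upward. The part of any of these tissues in the changes between stages was not tested.

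**Figure D4:**
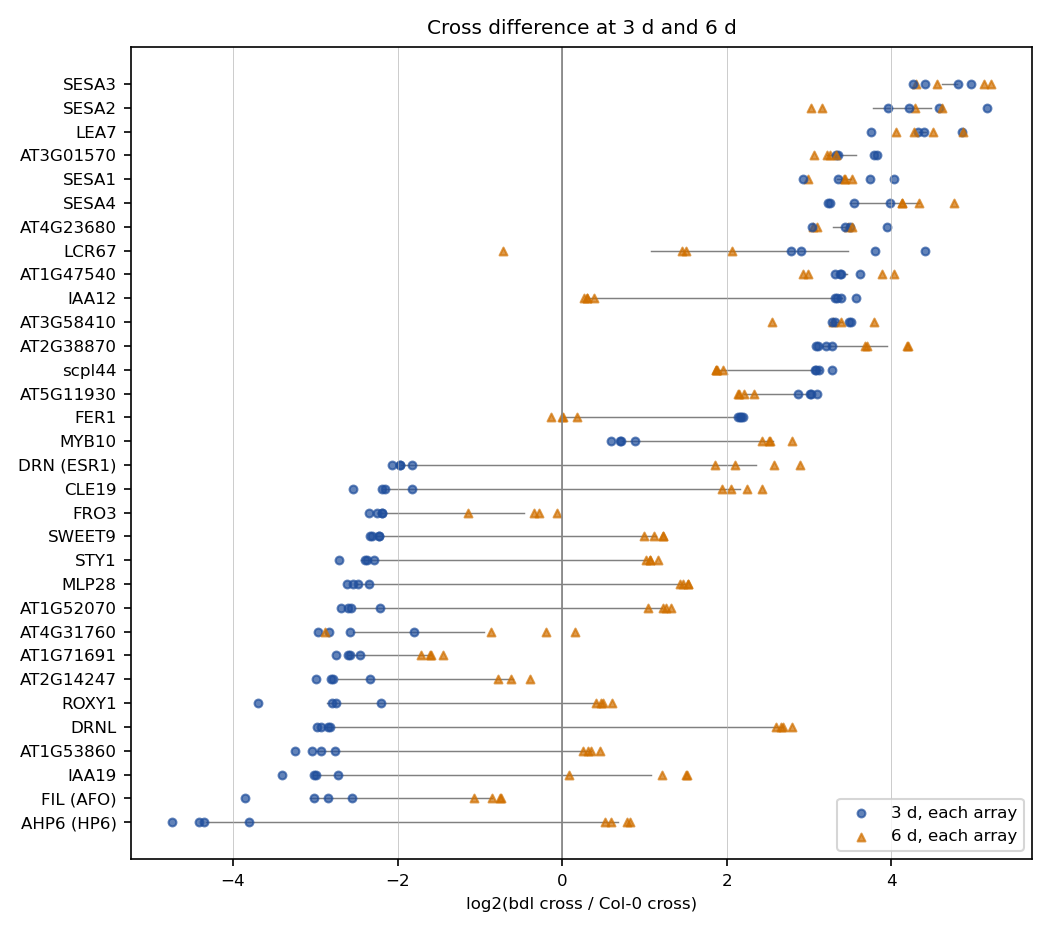
log2(bdl cross / Col-0 cross) on each 3 d array (circles) and each 6 d array (triangles) for 32 genes, with a line from the 3 d mean to the 6 d mean. AT1G47540 and AT4G23680 keep their place between the stages, FER1 and IAA12 move to near 0, and most of the genes at the bottom cross from negative to positive values.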

How the data were processed

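Each oligo array compared a pair of embryo samples in 2 colours, and the dyes of the crosses were exchanged, so that bdl RNA carried Cy5 on the first pair of replicates (1, 2) and Cy3 on the other pair (3, 4), per the labels. Blank spots paired the arrays differently from the labelled dyes, as given in the section on processing below. RNA was extracted, amplified and dye-coupled per the labels' protocols. The intensity values, 1 per channel and spot, were used as deposited, with median signals of 319 to 351 in the bdl cross and 315 to 350 in the Col-0 cross over the arrays. The authors' value table holds log2 ratios, which matched the log2 ratios of these intensities to within 4.71e-08 at 24661 rows. The scanner and any background correction or scaling before deposit were not given in the sources used here.

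No further normalization was applied. A gene was tested if a channel exceeded the 95 percentile of 1743 blank spots on at least 2 arrays and if at least 3 arrays of both dye orientations had a value. The brightest probe stood for a locus. The fit was limma 3.58.1 in R 4.3.3 with a dye term, over 19229 loci, with Benjamini-Hochberg adjustment and a threshold of 0.05. It was tested on simulated data. Replicates are biological per the labels. Each array held 22327 to 25322 log2 ratios, and the number of arrays limits the precision. Symbols came from RefSeq for 24467 of 24648 loci.

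For the named genes, the 12 largest rises and falls, up to 4 called members per list and direction, defining members, IAA12, runs and markers were eligible, and the text takes a part of these. The lists and members were chosen with earlier results of these data known, and 6 lists after values of called genes had been seen. The 6 d values and the difference between stages come from the value table, with all 8 arrays in the fit. Alternatives covered the filter, dye term, spread model, offset, loess, probe rule, value source and arrays left out. Leaving out an array together with the dye term was chosen after seeing the data.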

Additional observations from a re-analysis of the deposited data

Results flagged for a closer look

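In 15 named genes and 5 lists, 1 array stood apart from the other 3 at 3 d, by a gap that took more of the range than Dixon's critical value for 4 samples allows at 95%. Chance flags about 1 in 20 groups of 4 values, so some such values would arise among the genes and lists looked at. The share of the range was 0.867 for WRI1 (1.28, 1.09, 1.09 and 1.06), 0.84 for CRD1, 0.847 for RPL3P and 0.964 for EXPA15. It was 0.837 for EXPA5, 0.909 for FLA3, a gene known from pollen (2.13, 1.56, 1.54 and 1.50), 0.842 for AGP26, 0.85 for HDG1 and 0.836 for WER (MYB66). It was 0.891 for the cytokinin oxidase gene CKX2 (0.55, 0.53, 0.84 and 0.51), 0.916 for TMKL1 (−1.74, −1.27, −1.31 and −1.27), 0.883 for SPS3F (1.83, 1.84, 2.69 and 1.72), 0.885 for TIP2, 0.84 for WAT1 and 0.873 for IQD6. Of array medians, it was 0.865 for organellar ribosomal proteins, 0.833 for proteasome subunits, 0.843 for heat shock proteins, 0.904 for leucine-rich repeat receptor kinases and 0.873 for leaf and silique wall markers.

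The difference between the crosses changed between 3 d and 6 d, past the adjusted threshold of limma, in 23 of 32 named genes compared. Among all 18255 genes tested it did so in 46.4%. Many of the 32 were named for large changes at 3 d, and the same 3 d values enter the difference. As 6 d minus 3 d on the log2 scale, the change was −3.088 for IAA12, −2.151 for FER1, −2.394 for LCR67, −1.245 for scpl44 and −0.7948 for AT5G11930. The change was upward in regulators of organs and polarity, by 5.577 in DRNL, 4.312 in ESR1 (DRN), 2.21 in AFO (FIL), 3.352 in ROXY1 and 3.522 in STY1. It was also upward in signalling genes, by 5.011 in HP6 (AHP6), which inhibits cytokinin signalling, 4.114 in the Aux/IAA gene IAA19 and 4.343 in CLE19. Other upward changes were 3.727 in AT1G52070, 3.34 in AT1G53860, 3.988 in MLP28, 1.003 in AT1G71691, 2.165 in AT2G14247, 0.7774 in AT2G38870, 0.8327 in SESA4, 1.782 in FRO3, 1.844 in MYB10 and 3.413 in SWEET9. The change did not pass in SESA4 without replicate 2, 3 or 4, nor in LCR67 without replicate 1 or 2. Both stages were read with the same direction of the value table.

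MicroRNA stem-loop spots, which no comparison above used, were above blank spots in either cross on at least 2 arrays for 35 of 75 spots.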

How the results depend on the processing

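With 2527 genes called at 3 d (1349 higher and 1178 lower in bdl), other settings gave the following counts, as all, higher and lower. Requiring each channel to exceed blank spots on every array gave 5375, 2761 and 2614. No dye term gave 5078, 2607 and 2471. A dye term that follows the blank spots' own ratios, whose signs differ from the labelled dyes on some arrays, gave 4872, 2484 and 2388. An intensity trend gave 5732, 2988 and 2744, and 50 added to both channels 4016, 2087 and 1929. A size of at least 2-fold left 660, 396 and 264, by construction. No filter gave 776 lower genes. Without any 1 replicate and with the dye term the counts were 0 to 0 in each direction, where 1 residual degree of freedom remains. Without 1 replicate and without the dye term they were 1973 to 3969, 1100 to 2049 and 873 to 1920, the highest without replicate 4. The cause of the other shifts was not tested. Of 186 named genes, 161 kept sign and side of the threshold under all alternatives other than those that left out an array with the dye term, and in those all 741 values kept their sign while 0 passed. For the difference between stages, 8464 genes passed, and 7504 did with a replicate block. Replicate numbers did not pair the stages (correlations of −0.05 to −0.07 within numbers). Named genes kept their calls with the replicate block. Between stages, SESA4 did not pass without replicate 2, 3 or 4 (adjusted p = 0.0552, 0.0802 and 0.0539). Dim probes limit what can be called: the median SD over arrays was 0.91 in the dimmest of 5 bins by signal and 0.092 in the brightest.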

Other observations

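Of the microRNA stem-loop spots, 6 were above blank spots in both crosses on all 4 arrays. Their mean log2 ratios with the SD over 4 arrays were −0.34 ± 0.23 for MIR156g, −0.48 ± 0.52 for MIR158a, −0.30 ± 0.74 for MIR166a, 0.03 ± 0.21 for MIR166b, 0.26 ± 0.46 for MIR166f and −0.04 ± 0.61 for MIR395e. Of these, 0 differed by at least 2-fold in the same direction on all arrays. A spot may read the stem-loop precursor or longer transcripts, and the mature forms were not measured separately.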
